A study of Sus scrofa with 16 samples.

Results

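The genes described here carry ions, bicarbonate and water across the colonic epithelium. A list of 9 genes was read: SLC26A3, CFTR, SLC9A3, SLC12A2, SCNN1A, CA1, CA2, AQP8 and AQP3. A probe was taken where its gene name was one of these symbols, or where its description held the symbol in brackets, and control spots were left out. That rule found 17 probes of 7 genes among 43603 probes. A further probe, named only by a locus number in the scanner files and described there as aquaporin 8, was assigned to AQP8 through the RefSeq gene table, which brought the total to 18 probes of 8 genes, out of 6938 gene symbols on the array. No probe was found for SLC12A2, the basolateral sodium-potassium-chloride cotransporter, either by the rule or through that table, so it is not analysed here.

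The samples were colonic mucosa and liver of Duroc × Landrace × Large White barrows (castrated males) at 170 d of age. From 70 d of age the pigs ate a corn and soybean diet with purified corn starch (CS diet) or with purified raw potato starch (RPS diet) in its place, at 230 g/kg for the first 50 d and at 280 g/kg up to day 100. Each of the 4 groups, colon CS, colon RPS, liver CS and liver RPS, held 4 pigs, and each sample was hybridised to its own one-colour Agilent porcine array. The pigs were 1 per pen replicate, 4 of the 6 replicates having been picked at random for arrays, and all had feed withheld before slaughter. The colon sample was a scraping of the proximal mucosa and so held epithelium together with other cells. In such bulk samples fewer cells of a type and less RNA per cell cannot be told apart.

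The colon takes up sodium and chloride mainly through paired exchangers in the apical membrane, a sodium-proton exchanger and a chloride-bicarbonate exchanger, which draw their protons and bicarbonate from carbon dioxide hydrated by cytosolic carbonic anhydrases. The epithelial sodium channel adds electrogenic sodium uptake, chloride channels of the apical membrane allow secretion, and water follows through and between the cells. Much of the absorptive machinery is known from mature cells at the mucosal surface, and chloride secretion from the crypts.

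The probes were 60-base oligonucleotides. A choice of them is printed 5′ to 3′ as the scanner files give them, in lower case: probes of the exchangers and of AQP8, whose colonic levels varied together, the CFTR pair, and the AQP3 probe with a diet call. The 3 capitals that end a CFTR probe mark a stop codon, found by reading the probe in the frame that is open up to it.
SLC26A3, brighter probe, from base 2110 of its transcript: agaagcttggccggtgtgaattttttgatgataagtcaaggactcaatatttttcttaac
SLC26A3, dimmer probe, from base 1385: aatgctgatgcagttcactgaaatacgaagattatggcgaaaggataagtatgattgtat
SLC9A3, from base 334: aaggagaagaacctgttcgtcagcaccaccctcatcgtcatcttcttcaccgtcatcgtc
AQP8, from base 499: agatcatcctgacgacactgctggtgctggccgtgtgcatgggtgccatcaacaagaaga
CFTR, brighter probe, from base 4235: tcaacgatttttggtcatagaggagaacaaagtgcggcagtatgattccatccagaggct
CFTR, dimmer probe, from base 4389: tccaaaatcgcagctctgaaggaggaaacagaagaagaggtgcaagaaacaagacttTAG
AQP3, dimmer probe, from base 356: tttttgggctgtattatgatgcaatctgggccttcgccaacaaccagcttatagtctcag
The start positions count along the transcript that the files name for each probe. The files name no genome build, so no chromosomal position is given. CA1 had 4 probes, and 2 of them carried one and the same sequence.

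Levels are log2 of the background-corrected signal after quantile normalization, over the 8 arrays of a tissue for the diet comparisons and over all 16 arrays for colon against liver. Each gene was read at its probe with the highest mean level over the colon arrays, called the reading probe, and its other probes were set beside it. A diet difference was called where limma's unadjusted p was under 0.05 and the change over 1.5-fold, the thresholds of the study, and a tissue difference where limma's adjusted p was under 0.05 at over 1.5-fold. Adjusted p-values are Benjamini-Hochberg values over all 43603 probes. A probe is called well above background as the scanner software marks it. None of the 18 spots was saturated or marked as an outlier on any array.

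The labelled tissues carried their markers. All 8 measured epithelial genes were higher in colon and 7 passed the test, among them KRT20, at least 2570-fold, and all 8 hepatocyte genes were higher in liver, with TTR and FGA not well above background in any colon sample. Median raw signal was 56.3 to 70.8 on the colon CS arrays and 34.2 to 42.5 on the colon RPS arrays, with 30.6 to 37.9 in liver. Each group lay on a slide of its own and was scanned apart from the others. An effect of slide therefore cannot be told apart from one of diet or of tissue.

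A pair of colon samples stood apart in these markers. The summed epithelial level was 17.80 in CS pig 3 and 18.30 in RPS pig 2, against 19.19 to 19.56 in the other 6 pigs, and the summed leukocyte level was 13.68 and 13.39 against 10.22 to 12.04. MS4A1, a B-cell surface gene, read 12.72 and 12.57 in these pigs and 6.50 to 10.37 in the others. Colon results are therefore given with and without this pair where they rest on it.

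The absorptive genes were widely spread from pig to pig in colon, within both diets. Over the 8 colon samples SLC26A3 spanned 5.80 log2 units, SCNN1A 5.39, AQP8 4.90 and SLC9A3 4.42. For SLC26A3, AQP8 and SLC9A3 the SDs were 1.97, 1.85 and 1.45, against a median SD of 0.36 over the 26511 probes well above background in all 8 samples, of which 0.309%, 0.377% and 1.09% had an SD as large. SCNN1A was well above background in 5 of the 8 samples, so its SD of 2.01 rests in part on values at the background and is not ranked. Such a spread was not particular to these genes, since CLCA4, of the related anion transport genes, had SDs of 1.86 and 2.47 within the CS and RPS groups. The SD was smaller for CA2 (0.83), CFTR (0.63), CA1 (0.55) and AQP3 (0.44).

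**Figure D1:**
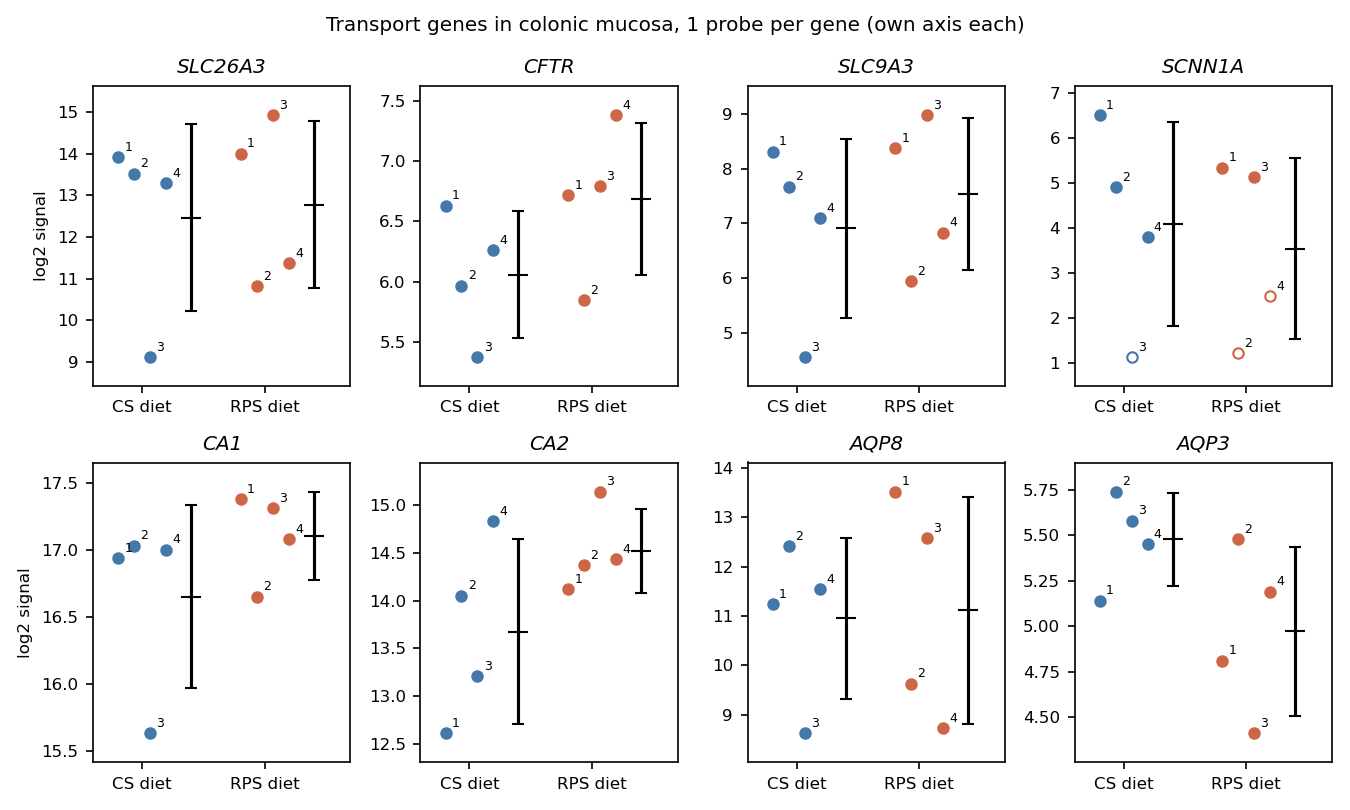
Log2 signal of each gene at its reading probe in the 8 colon samples, with CS pigs in blue and RPS pigs in orange, the pig number beside each point, and the group mean ± SD (n = 4) as a black bar. Filled points were well above background and open points were not; each panel has its own axis, and the groups overlapped in all 8 panels.

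SLC26A3, also called DRA, is the apical chloride-bicarbonate exchanger. In the CS pigs it read 13.92, 13.52, 9.12 and 13.30 (pigs 1 to 4), and in the RPS pigs 14.00, 10.82, 14.93 and 11.37. CS pig 3 lay far below the other CS pigs, RPS pigs 2 and 4 lay below RPS pigs 1 and 3, and the diet groups overlapped over nearly their whole range. The group means were 12.47 ± 2.24 (SD, n = 4) with the CS diet and 12.78 ± 2.00 (SD, n = 4) with the RPS diet, a difference of 0.31 with a 95% interval from -2.89 to 3.51 (limma, adjusted p = 0.996). The interval spans changes of several-fold in both directions. The dimmer probe gave 0.57 ± 1.30 (SE) and followed the reading probe closely over the 8 samples (r = 0.988). Without CS pig 3 and RPS pig 2 the difference at the reading probe was -0.16.

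CFTR, the cyclic AMP-regulated anion channel of the apical membrane, was highest in a pig low in SLC26A3. It read 6.63, 5.97, 5.38 and 6.26 in CS pigs 1 to 4, and 6.72, 5.85, 6.79 and 7.38 in RPS pigs 1 to 4. RPS pig 4, among the lowest of the 8 for SLC26A3 and AQP8, had the highest CFTR level. The reading probe was 0.63 ± 0.38 (SE) higher with RPS and its companion 0.80 ± 0.36, and neither was called (limma, adjusted p = 0.982 and 0.932). Without CS pig 3 and RPS pig 2, both CFTR probes passed the unadjusted thresholds, at 0.68 and 0.77, with adjusted p-values of 0.533 and 0.529 (limma). In that fit 5.47% of all probes were called, against 2.94% with all 8 samples.

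SLC9A3, or NHE3, is the apical sodium-proton exchanger that works beside SLC26A3. It read 8.31, 7.67, 4.56 and 7.09 in CS pigs 1 to 4 and 8.38, 5.95, 8.98 and 6.83 in RPS pigs 1 to 4. The order of the 8 pigs was the same as for SLC26A3. With means of 6.91 ± 1.64 (SD, n = 4) and 7.54 ± 1.39 (SD, n = 4), the RPS minus CS difference was 0.63 with an interval from -1.66 to 2.93, and the groups overlapped. Leaving out CS pig 3 alone turned it to -0.15.

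SCNN1A encodes the alpha subunit of the epithelial sodium channel. It read 6.52, 4.92, 1.13 and 3.80 in CS pigs 1 to 4 and 5.35, 1.22, 5.13 and 2.48 in RPS pigs 1 to 4. The values for CS pig 3 and RPS pigs 2 and 4 were not well above background and have only an upper bound. The difference was -0.55 ± 1.38 (SE), within the spread between pigs (limma, adjusted p = 0.994).

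CA1 and CA2, the cytosolic carbonic anhydrases, were bright in every colon sample. CA1 read 16.94, 17.03, 15.63 and 17.00 in CS pigs 1 to 4 and 17.38, 16.65, 17.31 and 17.08 in RPS pigs 1 to 4. CS pig 3 was again the lowest and RPS pig 2 the next, and the other 6 lay within a narrow band. The 4 CA1 probes gave RPS minus CS differences from 0.39 to 0.50, none called.

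CA2 read 12.61, 14.05, 13.21 and 14.83 in CS pigs 1 to 4 and 14.12, 14.37, 15.14 and 14.43 in RPS pigs 1 to 4. The RPS pigs were tightly grouped (SD 0.44, n = 4), whereas the CS pigs were spread (SD 0.97, n = 4) and overlapped them through pig 4. The 5 CA2 probes were higher with RPS by 0.81 to 0.93, and none was called (limma, adjusted p from 0.949 to 0.982). Without CS pig 4, 4 of the 5 probes passed the unadjusted thresholds, with differences up to 1.42 and adjusted p-values of 0.998 (limma). In that fit 2.45% of all probes were called, against 2.94% in the main fit.

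AQP8 is a water channel of absorptive colonocytes. It read 11.24, 12.41, 8.62 and 11.55 in CS pigs 1 to 4 and 13.52, 9.63, 12.58 and 8.72 in RPS pigs 1 to 4. The RPS group held both the highest pair of values and a pair near the lowest. The means were 10.96 ± 1.63 (SD, n = 4) and 11.11 ± 2.30 (SD, n = 4), and the difference of 0.16 had an interval from -2.85 to 3.17.

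AQP3, a basolateral channel for water and glycerol, was the member with a called diet difference in colon, at its dimmer probe. That probe read 4.26, 5.09, 4.88 and 4.46 in CS pigs 1 to 4 and 3.11, 4.12, 4.42 and 3.22 in RPS pigs 1 to 4, of which RPS pigs 1 and 4 were not well above background. It fell by 0.96 ± 0.35 (SE) on the log2 scale (limma, unadjusted p = 0.0279, adjusted p = 0.877), though RPS pig 3 lay above CS pig 1. The brighter probe, well above background in all 8 samples, read 5.14, 5.74, 5.58 and 5.45 with CS and 4.81, 5.48, 4.41 and 5.19 with RPS. Its difference of -0.50 ± 0.25 (SE) ran the same way and was not called, and the 2 probes followed each other only loosely over the pigs (r = 0.474). The call on the dimmer probe was lost without CS pig 2, CS pig 3, RPS pig 1 or RPS pig 4, each left out alone.

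So 1 of 18 member probes (5.6%) was called between diets in colon, a decrease. Of all probes 2.94% were called, and 1.32% were called and lower. By adjusted p none was called among the members and 0% of all probes (limma), while 1 member probe and 5.42% of all probes had an unadjusted p under 0.05. The groups overlapped at all 18 member probes, where 6.51% of all probes had groups that did not overlap. The median difference over the members was 0.53, with 15 of 18 higher, and over all probes it was 0.01, with 52.3% higher. The probes of a gene read the same transcript and are not independent.

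Markers of other cell types were read in the same samples. The summed smooth muscle level was 14.76 to 14.88 with CS and 14.11 to 14.51 with RPS on the 16-array scale, with all 3 genes lower and none called. ACTA2 (-0.52, 1.44-fold, limma, unadjusted p = 0.00473, adjusted p = 0.573) missed the call by the fold threshold alone, and its groups did not overlap. DES (-0.28, 1.21-fold, limma, unadjusted p = 0.0306, adjusted p = 0.889) missed it in the same way, with groups that overlapped. All 3 fibroblast genes were lower with RPS, and COL1A2 was called (-0.72, adjusted p = 0.803, limma). Of 6 leukocyte genes 5 were lower and none was called, with CD79A at -1.60 ± 1.24 (SE) and MS4A1 at -1.59 ± 1.54. The 8 epithelial genes differed by -0.06 to 0.61, with none called. The part of these cells in the values above was not tested.

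**Figure D2:**
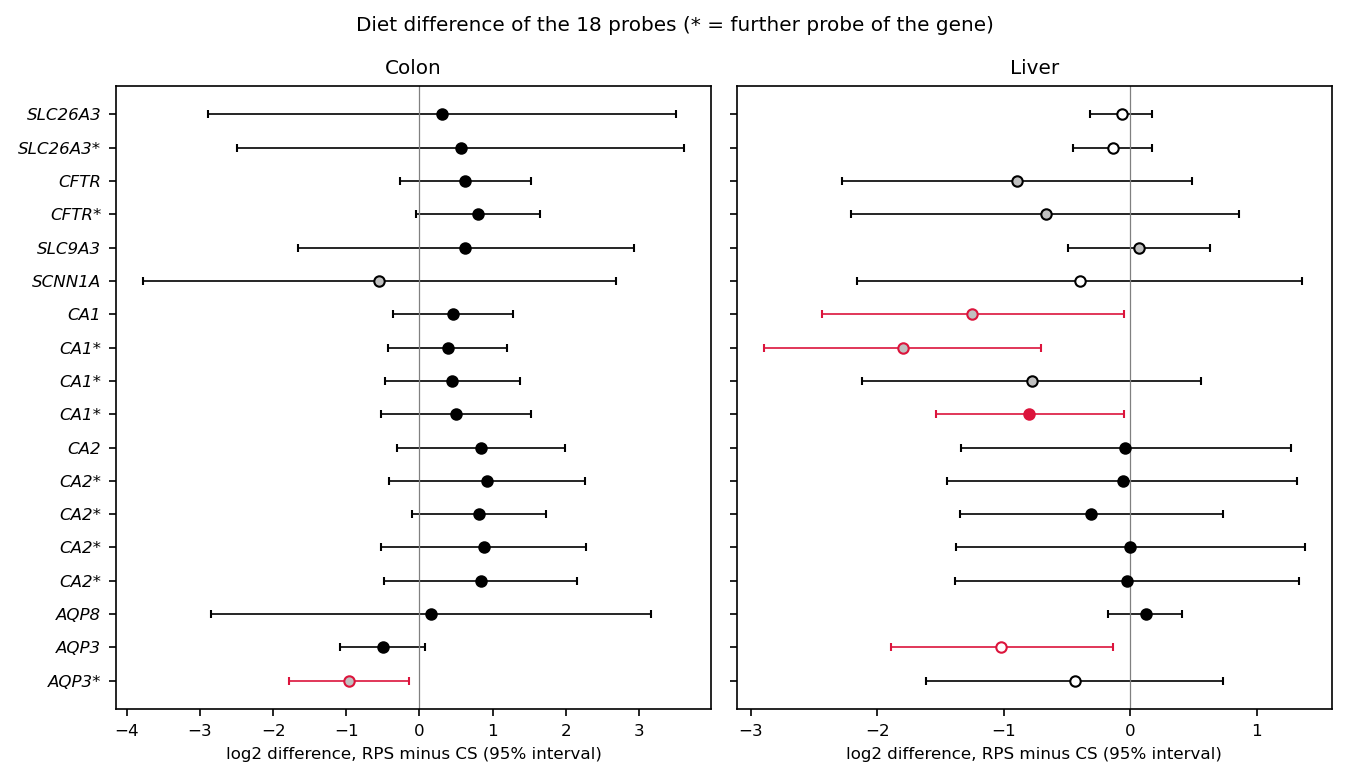
RPS minus CS log2 difference of each of the 18 probes in colon and liver, with 95% intervals from limma (n = 4 against 4). Red marks probes past both unadjusted thresholds, 1 in colon and 4 in liver, filled points were well above background on all 8 arrays, grey on some and open on none, and * marks a further probe of the gene above it.

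The pigs low in one absorptive gene were low in the others. CS pig 3, RPS pig 2 and RPS pig 4 were the 3 lowest of the 8 for SLC26A3, SLC9A3, SCNN1A and AQP8 alike, and CS pig 3 was the lowest for 6 of the 8 genes. All 28 pairs of genes were correlated over the 8 pigs, and in 5 of them both the Pearson and the Spearman coefficient had a Benjamini-Hochberg adjusted p under 0.05 by the exact permutation test over pairings. These were SLC9A3 with SLC26A3, SCNN1A and AQP8, and SLC26A3 with SCNN1A and AQP8. The SCNN1A pairs include 3 values not well above background. How often pairs of other colon genes passed the same test was not counted. Genes outside the list, the nearest of 5357, came as close: NR1I3 to SLC9A3 (r = 0.989) and BAIAP2L2 to SLC26A3 (r = 0.987). These are the highest of 5357 values over 8 samples, so they do not show how common such correlation is.

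For SLC9A3 and SLC26A3, Pearson's r was 0.97 (exact permutation p = 2.48e-05, adjusted 0.000694, the smallest this test can give) and Spearman's rho was 1.00 (exact permutation p = 4.96e-05, adjusted 0.00139). After each diet's mean was taken off, r was 0.98. Without the 2 pigs farthest from the median of SLC9A3, CS pig 3 and RPS pig 3, r was 0.92, and without CS pig 3 and RPS pig 2 it was 0.89.

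For SLC26A3 and AQP8 r was 0.89 (exact permutation p = 0.00424, adjusted 0.0237) and rho 0.88 (exact permutation p = 0.00724, adjusted 0.0405), and r was 0.89 within diets and 0.85 without CS pig 3 and RPS pig 2, which are also the 2 pigs farthest from the median of SLC26A3. SLC9A3 and AQP8 gave r = 0.83 and rho = 0.88 (exact permutation p = 0.0106 and 0.00724, adjusted 0.0424 and 0.0405). SLC9A3 and SCNN1A gave r = 0.91 and rho = 0.90 (exact permutation p = 0.00136 and 0.00456, adjusted 0.0181 and 0.0405), and SLC26A3 and SCNN1A r = 0.91 and rho = 0.90 (exact permutation p = 0.00198 and 0.00456, adjusted 0.0181 and 0.0405). Within diets these 3 pairs gave r of 0.84, 0.98 and 0.94. Without the 2 pigs farthest from the median of the first gene of each pair, r was 0.75, 0.97 and 0.80, and without CS pig 3 and RPS pig 2 it was 0.70, 0.79 and 0.80. The low pigs were set off by a gap in some of these genes, and a single diet holds 4 pigs, too few for a coefficient of its own.

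CA1 with SLC9A3 (r = 0.89, exact permutation p = 0.00258, adjusted 0.0181) and with SLC26A3 (r = 0.85, exact permutation p = 0.00561, adjusted 0.0262) passed by r but not by rho, which was 0.76 for both (exact permutation p = 0.0368, adjusted 0.0986). Without the pair of samples low in epithelial markers these r were 0.56 and 0.40, so the relation rested in part on that pair. CFTR did not follow the exchangers past the correction: with SLC9A3 r was 0.65 and rho 0.62 (exact permutation p = 0.082 and 0.115, adjusted 0.173 and 0.189), and r was -0.07 without that pair of samples. The relation of CFTR turned on which pigs were kept, since without the 2 pigs farthest from its median, CS pig 3 and RPS pig 4, r was 0.88 with SLC9A3 and 0.82 with SLC26A3. No correlation of CA2 passed. Its r was 0.28 with SLC26A3 (exact permutation p = 0.51, adjusted 0.595) and -0.12 with SCNN1A (exact permutation p = 0.772, adjusted 0.772), with rho of 0.21 and -0.12 (exact permutation p = 0.619 and 0.793, adjusted 0.642 and 0.793). AQP3 was negatively related to the exchangers, with r = -0.59 and rho = -0.74 against SLC26A3 (exact permutation p = 0.126 and 0.0458, adjusted 0.235 and 0.0986), which did not pass the correction.

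**Figure D3:**
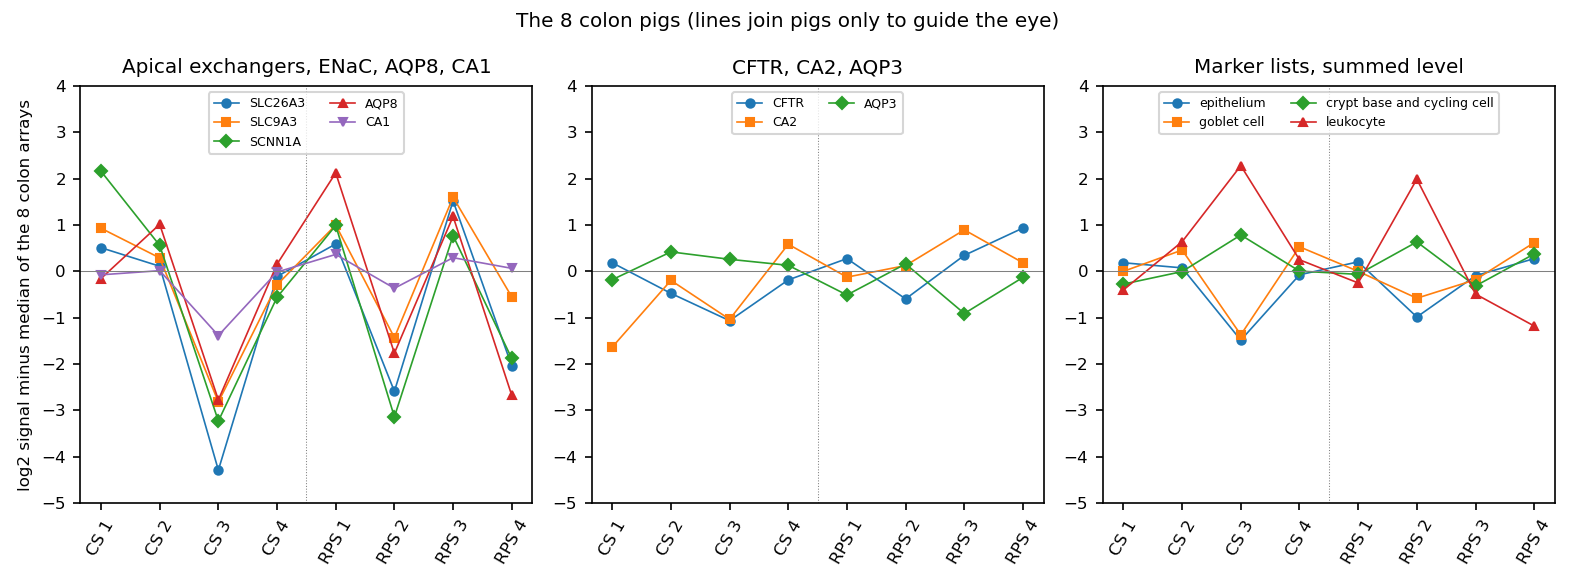
Log2 signal in each of the 8 colon pigs minus the median of the 8, for the apical exchangers, SCNN1A, AQP8 and CA1 (left), for CFTR, CA2 and AQP3 (middle), and for the summed level of 4 marker lists (right). CS pig 3 and RPS pig 2 dip in the left panel together with the epithelial list, while RPS pig 4 dips in SLC26A3 and AQP8, and in SCNN1A to a value not well above background, with the summed epithelial and goblet levels at their highest.

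The marker levels moved with part of this pattern. The summed epithelial list spanned 1.76 log2 units over the 8 colon samples, where SLC26A3 spanned 5.80, and in CS pig 3 and RPS pig 2 both were low. RPS pig 4 differed: its summed epithelial level (19.56) and goblet cell level (17.04) were the highest of the 8 and its leukocyte level (10.22) the lowest. Such sums rest mostly on the brightest genes of a list, KRT8 and LGALS4 for epithelium and CLCA1 for goblet cells. EPCAM (15.75) and KRT20 (14.90) were not at their highest in RPS pig 4, and read 16.21 and 15.34 in RPS pig 1. In RPS pig 4 SLC26A3 lay 2.04 below the median of the 8, and AQP8 2.67 below, SCNN1A was not well above background, while CA1 and CFTR lay 0.06 and 0.93 above. The part of cell composition in the spread among pigs was not tested.

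Among 5357 other named genes measured in all 8 colon samples, 1 probe each, those most like the members by Pearson's r over the 8 samples were as follows, given as a description. NR1I3 (0.989) and PCDH1 (0.988) were nearest to SLC9A3, and BAIAP2L2 (0.987) and COL10A1 (0.984) to SLC26A3. IRF1 (0.968) and SECISBP2L (0.964) were nearest to AQP8, and KLHL32 (0.983) and IFITM1 (0.975), among 5358 genes, to SCNN1A. ASCL2 (0.988), a transcription factor of crypt base stem cells, and UQCC (0.987) were nearest to CFTR, and TOM1L1 (0.996) and GOSR1 (0.977) to CA1. ENTPD1 (0.964) and CYP20A1 (0.948) were nearest to AQP3. CA2 had no near match, its closest being OFD1 (0.873) and DDR2 (0.864). All points share the same 8 arrays.

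In liver the genes fell into those that were measured and those that were not. CA2 and AQP8 were well above background in all 8 livers, CA1 in 6, SLC9A3 in 5 and CFTR in 2, and SLC26A3, SCNN1A and AQP3 in none. CA2 ranged from 9.40 to 12.17 at its reading probe and differed by -0.04 between diets, with an interval from -1.34 to 1.27. AQP8 was even, from 5.07 to 5.63, and differed by 0.12 ± 0.13 (SE). SLC9A3 differed by 0.07 ± 0.24.

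In liver CA1 was the gene whose diet difference was called at several probes. Its reading probe read 4.67, 4.80, 3.36 and 5.52 in CS pigs 1 to 4, and 2.93, 4.25, 2.72 and 3.45 in RPS pigs 1 to 4, RPS pigs 1 and 3 being not well above background. The probe of the same sequence read 4.86, 4.84, 3.89 and 5.67 with CS and 2.30, 3.73, 2.47 and 3.54 with RPS, so that at this probe every RPS pig lay below every CS pig. These levels are near the detection limit, against 15.63 to 17.38 in colon.

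At the reading probe CA1 fell by 1.25 ± 0.51 (SE, adjusted p = 0.634), at the probe of the same sequence by 1.80 ± 0.47 (adjusted p = 0.44) and at the third by 0.80 ± 0.32 (adjusted p = 0.626). All 3 passed both unadjusted thresholds (limma, n = 4 against 4). The fourth CA1 probe differed by -0.78 ± 0.57 and was not called, and there RPS pig 3 read 5.0, above 3 of the 4 CS pigs. The 2 probes of one sequence differed on a single array by -0.62 to 0.52 over the 16 arrays, and by -0.08 to 0.06 in colon where the signal was high. At the reading probe the call was lost when any 1 of 6 of the 8 livers was left out, CS pigs 1, 2 and 4 and RPS pigs 1, 3 and 4, with differences over all 8 omissions from -1.66 to -0.94. With normexp background the difference at that probe was -0.24 and was not called.

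**Figure D4:**
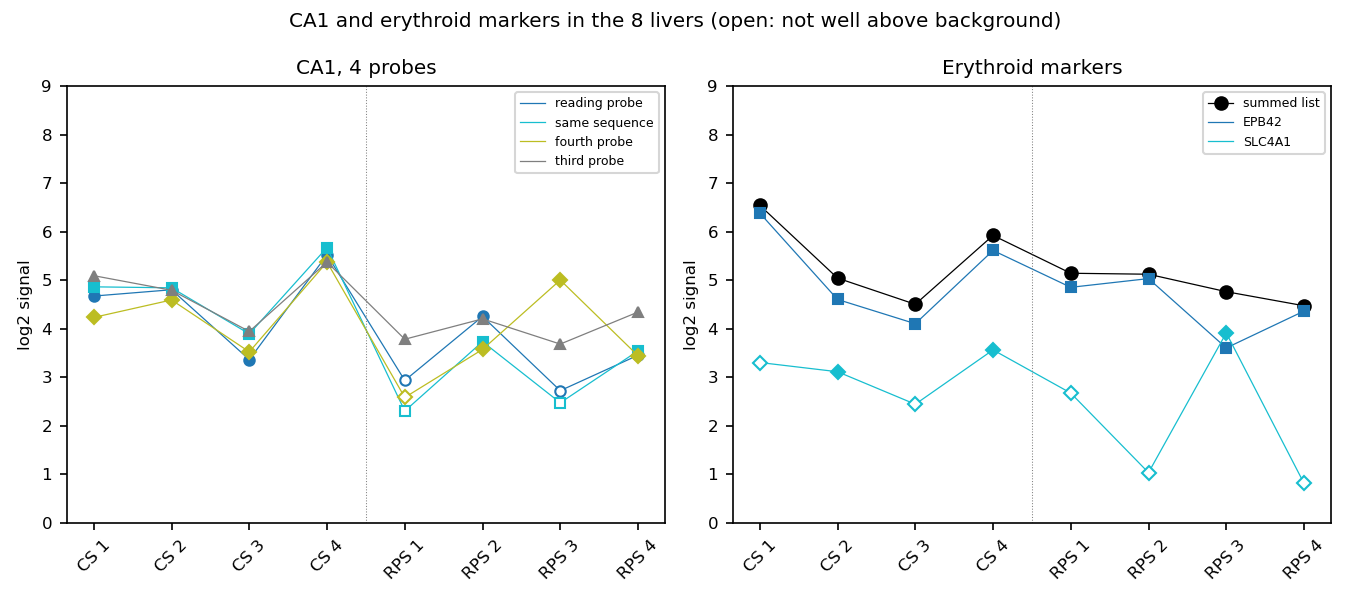
Log2 signal of the 4 CA1 probes (left) and of 2 erythroid markers with their summed level (right) in the 8 livers, CS pigs then RPS pigs, open symbols being not well above background; lines only guide the eye. The CA1 probes lie mostly between 3 and 6 with CS, and the summed erythroid level runs from 4.50 to 6.54 with CS and from 4.47 to 5.14 with RPS.

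CA1 is also a major protein of red blood cells. A pair of erythroid membrane genes was read in liver, EPB42, well above background in all 8 livers, and SLC4A1, the red cell anion exchanger, in 3 of them. The RPS minus CS difference was -0.71 ± 0.55 (SE) for EPB42 and -1.0 ± 0.70 (SE) for SLC4A1, and neither was called. Their summed level was 6.54, 5.04, 4.50 and 5.92 in CS pigs 1 to 4 and 5.14, 5.12, 4.76 and 4.47 in RPS pigs 1 to 4. CS pigs 1 and 4 were the highest, CS pig 3 and RPS pig 4 the lowest, and the groups overlapped. The part of red cells in the CA1 values was not tested.

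In liver 4 of 18 member probes (22.2%) were called, all lower with RPS, 3 of CA1 and the brighter AQP3 probe (-1.02, adjusted p = 0.591). Of all probes 3.56% were called, and 1.76% were called and lower. AQP3 was not well above background in any of the 8 livers, so its difference describes signal at the background. Epithelial and bile duct markers were read in the same livers, and 6 of 8 epithelial genes and both bile duct genes were lower with RPS. Of all probes 51% were lower. EPCAM is in both lists, and the lower epithelial genes CDX2 (-0.16) and KRT20 (-0.05) were not well above background in any liver. SOX9 (-1.13, adjusted p = 0.6) and CDH1 (-0.80, adjusted p = 0.442) were called, with groups that did not overlap (limma), and EPCAM (-0.75) and VIL1 (-0.96) were not called, while the keratins KRT18 (0.49) and KRT8 (0.30) had positive differences and were not called. The part of these cells in the member values was not tested. By adjusted p no member was called (limma), and 0.00229% of all probes were, which is 1 probe. The groups did not overlap at 1 of the 18 member probes, where 4.45% of all probes did not.

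Between the tissues all 18 member probes were higher in colon, and 17 passed (limma, adjusted p under 0.05 and over 1.5-fold). Of all probes 42.2% passed, and 23.4% passed and were higher in colon. CA1 differed by 12.64 ± 0.31 (SE) at its reading probe and by 11.86 to 12.68 over its 4 probes. SLC26A3, not well above background in any liver, was at least 585-fold higher in colon at its reading probe and at least 74.2-fold at the other.

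**Figure D5:**
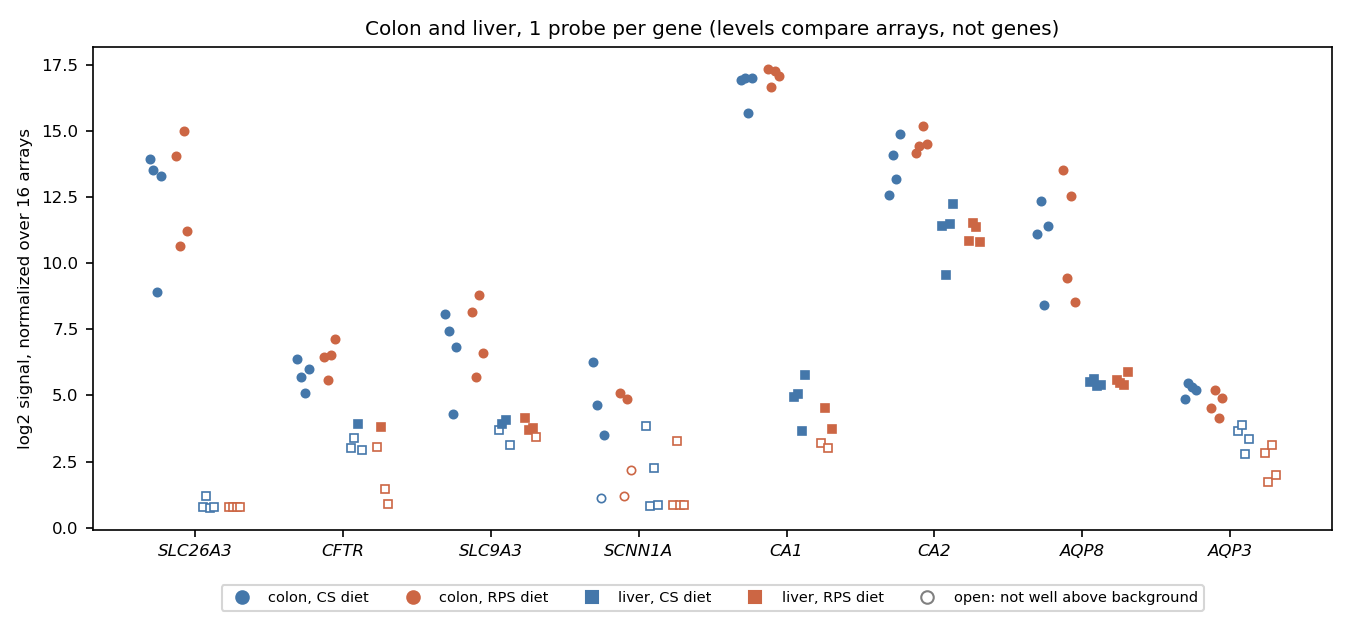
Log2 signal after normalization over 16 arrays of each gene at its reading probe, colon as circles and liver as squares, CS in blue and RPS in orange, filled where well above background. The 8 colon samples lie above the 8 livers for all genes but SCNN1A.

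AQP8 was higher in colon by 5.39 ± 0.69 (SE), CFTR by 3.30 ± 0.39, SLC9A3 by 3.26 ± 0.53 and CA2 by 2.97 ± 0.38 (limma, adjusted p of at most 0.000116, n = 8 against 8). Liver CA2 nonetheless stood at 11.16 ± 0.78 (SD, n = 8), against 14.13 ± 0.87 in colon, and the tissues overlapped at 2 of its 5 probes. CFTR was well above background in only 2 of the 8 livers and SLC9A3 in 5, so their differences rest in part on values at the background. AQP3 was at least 2.76-fold higher at the brighter probe and at least 1.44-fold at the dimmer one. These differences depend on the background correction. With normexp they were 0.87 for CFTR, 1.33 for SLC9A3, 4.00 for AQP8, 6.49 for SLC26A3 and 0.34 for AQP3, so that AQP3 no longer passed the fold threshold and SLC26A3 lay under the bound given above. SCNN1A, higher by 1.90 ± 0.81 and at least 1.16-fold, did not pass (limma, adjusted p = 0.0631). It passed without colon CS pig 3 and colon RPS pig 2 (2.68, adjusted p = 0.00586) and with slide as a random block (adjusted p = 0.0292). That block left diet out of the fit and could not part slide from tissue, since no slide held both tissues. The groups did not overlap at 14 of 18 member probes, where 26.8% of all probes did not. Whether the diet difference differed between tissues was tested by the interaction, which no member passed. The smallest adjusted p, 0.671 (limma), was at a CA1 probe of the repeated sequence (2.15 ± 0.59, SE). An unadjusted p under 0.05 was found at 3 of 18 member probes, where 4.72% of all probes had one. All 3 were probes of CA1, and 2 of them carried the same sequence. By adjusted p 0.00229% of all probes passed.

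Other genes of the same processes were read from 7 lists, 52 of whose 81 genes were measured. In colon 1 of the 52 (1.9%) was called between diets, against 2.94% of all probes. AQP5, an aquaporin best known from secretory glands, rose with RPS by 0.97 ± 0.19 (SE, adjusted p = 0.4, limma). No gene was called among the anion transporters (7 measured), the sodium-proton exchangers and their scaffolds (6), the sodium pump and potassium channels (12), the aldosterone response (5), the other carbonic anhydrases (6) or the secretagogue receptors (8).

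In liver 5 of the 52 (9.6%) were called, against 3.56% of all probes. SLC26A6, an anion exchanger, rose by 1.24 ± 0.29 (SE, adjusted p = 0.393), SGK1, an aldosterone- and glucocorticoid-induced kinase that keeps the epithelial sodium channel at the membrane, by 1.32 ± 0.29 (adjusted p = 0.349), the lysophosphatidic acid receptor LPAR2 by 0.82 ± 0.12 (adjusted p = 0.286) and uroguanylin, GUCA2B, by 0.65 ± 0.28 (adjusted p = 0.658). KCNMA1, a large-conductance potassium channel, fell by 1.74 but was well above background in only 1 of the 8 livers.

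Between tissues 37 of the 52 (71.2%) passed, 24 higher in colon and 13 higher in liver, against 42.2% of all probes, 23.4% higher in colon and 18.7% higher in liver. The goblet cell protein CLCA1 (14.01) and CLCA4 (at least 1140-fold) were the anion-transport genes that differed most, and both were higher in colon. The potassium channel KCNN4 (at least 470-fold) and FXYD3 (4.98), a regulator of the sodium pump, were higher in colon, as were HSD11B2 (7.14), which inactivates cortisol in aldosterone target cells, OXSR1 (0.71), a kinase of the cation-chloride cotransporters, guanylin, GUCA2A (9.64), and GUCA2B (7.23). SLC9A2, a further sodium-proton exchanger, was at least 23.5-fold higher in colon, and the scaffold PDZK1 was higher in liver (-8.49). Among carbonic anhydrases the membrane-bound CA4 was higher in colon (4.19) and CA14 in liver, at least 904-fold, and of the aquaporins AQP9, a glycerol channel of hepatocytes (at least 131-fold), and AQP11 (-1.80) were higher in liver. Values in brackets are colon minus liver log2 differences.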

How the data were processed

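Total RNA of 8 colonic mucosa and 8 liver samples was labelled with Cy3 and hybridised to one-colour Agilent porcine arrays. The deposited files hold the scanner intensity of each spot, extracted per the labels with Agilent Feature Extraction 10.7, which subtracted background with spatial and multiplicative detrending and replaced signals within their own error by a surrogate value, which can compress differences between dim spots. A table of the authors' own log2 values, quantile normalized by them over the 16 arrays as its values show, was used as an alternative. The background-corrected processed intensity was taken to log2 after control spots were left out and spots marked as outliers were dropped, and was quantile normalized, with 8 arrays per run (1 tissue) for diet and all 16 for tissue and interaction. Spots of 1 probe were averaged, giving 43603 probes. Group means were fitted with limma 3.58.1 in R 4.3.3, with 4 samples a group. The fits were also run on simulated data with noise drawn independently for each probe. Those data held no slide effect and no shift shared by the probes of a sample, so that run cannot speak to either.

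The number of arrays limits the precision, and the intervals are limma's 95% intervals. Where a probe was not well above background in any sample of 1 group, its fold is a lower bound against the dimmest signal measured on those arrays. The 9 genes, the 7 lists of related genes and the marker lists were chosen with earlier results of these data known. Genes were named by fixed rules: each member at all its probes, the 2 genes most correlated with it, and of the related lists those past the diet thresholds or with the 2 largest tissue differences. Symbols in the files were updated through the RefSeq table (Sscrofa11.1), which left 29333 probes without a gene. A marker gene of the erythroid list is not reported here.

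Samples carry replicate numbers 1 to 4 in each group. Deviations of equal numbers from their group means correlated at -0.46 to 0.45 between the colon diets and -0.11 to 0.06 between the liver diets, so the numbers did not pair the diet groups. Between colon and liver they correlated at 0.14 to 0.28 for the CS pigs and -0.06 to 0.12 for the RPS pigs. Unequal numbers correlated at -0.12 to 0 for CS, where 4 of 4 colon samples were closest to their own number. For RPS they correlated at -0.13 to 0.18, and 1 of 4 was. The numbers thus paired the tissues for CS but not for RPS, and the main fits took all arrays as independent. A pig number in the text names a sample within its tissue. Alternatives were p75 scaling (each array set to its 75th percentile), normexp background with an offset of 50, the authors' values, a filter on dim probes, other sets of arrays in the fit, the methods' t-test of the study, blocks for pig and slide, and each sample left out in turn. The fit without colon CS pig 3 and colon RPS pig 2 was chosen after seeing the data.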

Additional observations from a re-analysis of the deposited data

Results flagged for a closer look

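In 32 groups of 4 samples (8 genes in 4 groups), 4 values stood apart from the other 3 of their group by Dixon's gap ratio, where chance marks about 1 group in 20. Both colon values were in CS pig 3, the sample lowest in epithelial markers. SLC26A3 read 9.12 there against 13.30 to 13.92 in the other CS pigs, and CA1 15.63 against 16.94 to 17.03. The 2 liver values, SLC26A3 at 1.17 in CS pig 2 against 0.79 to 0.80 and SCNN1A at 3.01 in RPS pig 2 against 0.86 to 0.89, were not well above background.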

How the results depend on the processing

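The tissue count stayed at 15 to 18 of 18 probes, and the interaction count at 0, under every alternative run. Tissue differences of dim probes moved more, from 0.87 to 4.12 for CFTR, 1.33 to 3.93 for SLC9A3, 6.49 to 12.67 for SLC26A3 and 0.34 to 2.29 for AQP3, each lowest with normexp. The colon diet count of 1 became 2 with p75 scaling (a CA2 probe added) and 2 with the filter on dim probes (a CFTR probe added). It became 0 with all 16 arrays in 1 fit and 2, both CFTR probes, without the 2 colon samples low in epithelial markers. Of all probes 2.94% were called in the main colon fit, 4.51% with p75 scaling and 2.72% with the filter. The share was 3.52% with all 16 arrays in 1 fit and 5.47% without those 2 samples. With single samples left out the colon count ran from 0 to 5. It was 5 without CS pig 4 (4 CA2 probes and AQP3) and 4 without RPS pig 2 (both CFTR and both AQP3 probes). It was 2 without CS pig 1 and 0 without CS pig 3 or RPS pig 4. The share of all probes called was 2.45% without CS pig 4, 6.04% without RPS pig 2 and 2.92% without CS pig 1. It was 3.29% without CS pig 3 and 2.81% without RPS pig 4. With p75 scaling 69.0% of all colon calls were higher with RPS, against 55.2%.

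The liver diet count of 4 became 0 with normexp background and 2 with the methods' t-test. With that t-test the colon count was 1, and no member passed after Benjamini-Hochberg in either tissue. Of all probes 3.56% were called in the main liver fit, 0.505% with normexp and 2.63% with the t-test, which called 2.21% in colon. With single samples left out the liver count ran from 1 to 4. It was 1 without CS pig 1 or CS pig 4, and 2 without CS pig 2, RPS pig 1 or RPS pig 4. The share of all probes called was 3.72% without CS pig 1, 3.81% without CS pig 4 and 3.7% without CS pig 2. It was 3.23% without RPS pig 1 and 4.65% without RPS pig 4. With the replicate block the colon count was 1 and the liver count 3, AQP3 losing its call (-1.02, adjusted p = 0.738, limma). That block called 2.91% of all probes in colon and 3.49% in liver. With the pig as a block the tissue count was 17. The cause of these changes was not tested.

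Signs that turned were all of differences that had not been called. Without the 2 colon samples low in epithelial markers SLC26A3 was -0.16 and AQP8 -0.13 between diets in colon. In liver SLC26A3 became 0.03 with p75 scaling and with normexp and CA2 0.01 with p75 scaling, and the AQP3 interaction became -0.04 with normexp. With single samples left out the colon differences ran from -0.15 to 1.16 (SLC9A3), -0.81 to 0.96 (SLC26A3), -1.52 to 0.26 (SCNN1A) and -0.64 to 0.95 (AQP8), the liver ones from -0.12 to 0.20 (SLC9A3), -0.11 to 0.02 (SLC26A3), -0.95 to 0.18 (SCNN1A) and -0.59 to 0.33 (CA2), and the interactions from -0.22 to 1.11 (SLC9A3), -0.79 to 1.08 (SLC26A3), -1.01 to 0.70 (SCNN1A) and -0.77 to 0.90 (AQP8). Signal near background limits SCNN1A in colon, AQP3 in both tissues and CA1 in liver.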
